A study of Mus musculus with 2 samples.

Results

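Cholesterol is built in every cell from acetyl-CoA through mevalonate, isoprenoid diphosphates, squalene and sterol intermediates. The 7 genes described here encode enzymes of that chain, Hmgcs1, Idi1, Fdps, Fdft1, Sqle, Lss and Cyp51, and were taken by symbol. All 7 were present in both tables, among 22480 genes. The data are transcript counts of single spinal cord cells, with 1 library of sham mice and 1 of mice 3 days after injury (3 dpi). Both libraries pooled 5 male and 5 female C57BL/6 mice aged 8 weeks, and the tissue was a cord piece of 8 mm with the injury site at its centre. The kind of injury and the sham surgery are not given in the sources used here.

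Myelin is a membrane rich in cholesterol, and the blood-brain and blood-spinal cord barriers keep out the cholesterol of plasma lipoproteins, so cells of the cord depend largely on sterol made there. Oligodendrocytes, which wrap axons in myelin, are known for high sterol synthesis. Transcription of the chain is driven by SREBP2, the product of Srebf2. When membrane sterol is plentiful, the Insig proteins hold SREBP2 in the endoplasmic reticulum, and oxysterols turn on the efflux genes through the nuclear receptor LXR.

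Each group was 1 library, so no test was made and library and injury cannot be told apart. The sham library held 76889038 UMIs (unique molecular identifiers, 1 for each captured transcript molecule) in 10138 barcodes, and the 3 dpi library 149291783 in 13594. After removal of called doublets 9306 and 12108 cells were used, with median depths of 5270 and 8440 UMIs. The libraries shared 39 barcode sequences. Cells were clustered without the 7 genes or the other lipid genes, and clusters were named "X-like" from markers. UMIs were summed over the cells of a class and are given per 1000000 UMIs of that class (CPM). Brackets hold 95% intervals of the counting error, which leave out how mice, libraries and cells vary. UMIs were counted once per molecule and not divided by transcript length, so levels are compared between cells for the same gene or the same sum, not between genes.

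Promoters of 4 of the 7 genes were found in the RefSeq table (GRCm38.p6), and their 200 bases before the transcription start are shown because the levels of the 7 genes were correlated over the cell classes. Capitals mark CCAAT, the letters bound by NF-Y, on either strand, and in Hmgcs1 also TCACNCCAC, a form of the sterol regulatory element. All are written 5′ to 3′ on the strand of the gene, which is the plus strand for the first 3 and the minus strand for Cyp51, and end at the base before the start.
Hmgcs1, chr13:119690151-119690350: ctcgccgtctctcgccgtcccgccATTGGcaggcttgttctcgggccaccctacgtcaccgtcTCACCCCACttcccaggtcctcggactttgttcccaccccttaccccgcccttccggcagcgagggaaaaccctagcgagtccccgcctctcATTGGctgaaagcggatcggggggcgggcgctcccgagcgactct
Idi1, chr13:8885406-8885605: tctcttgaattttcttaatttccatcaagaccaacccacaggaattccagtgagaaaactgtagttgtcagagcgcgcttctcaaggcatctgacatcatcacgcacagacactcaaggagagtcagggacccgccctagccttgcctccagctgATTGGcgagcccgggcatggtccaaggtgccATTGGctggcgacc
Lss, chr10:76531405-76531604: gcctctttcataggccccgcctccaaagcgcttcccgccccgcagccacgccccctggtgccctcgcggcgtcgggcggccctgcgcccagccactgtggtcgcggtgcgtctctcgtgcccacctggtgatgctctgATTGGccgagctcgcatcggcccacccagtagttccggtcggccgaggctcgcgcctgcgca
Cyp51, chr5:4104698-4104897: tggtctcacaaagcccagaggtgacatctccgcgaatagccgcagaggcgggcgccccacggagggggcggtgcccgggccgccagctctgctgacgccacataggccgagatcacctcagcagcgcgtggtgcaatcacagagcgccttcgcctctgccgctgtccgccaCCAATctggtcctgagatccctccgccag

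Within 250 bases before the start, CCAAT was found on either strand in 4 of these 4 promoters and in 33.8% of the 32851 promoters of the table. The GC box GGGCGG was found in 4 of 4 and in 32.7% of all. TCACNCCAC was found in Hmgcs1 alone of the 4, from base 137 to 129 before the start, and in 1.05% of all. Other forms of the sterol regulatory element were not searched for, so the other promoters may hold them. The E-box CACGTG was found in none of the 4 and in 6.02% of all. A match is a description of letters and not a measured binding site. Fdps, Fdft1 and Sqle are the other members.

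Oligodendrocyte-like cells carried the chain. In sham they held 91.5% of all UMIs of the 7 genes in kept cells, with 65.3% of the UMIs of all genes. The 7 genes summed to 2566 CPM [2551 to 2581] in sham oligodendrocyte-like cells (4331 cells) and to 1821 CPM [1801 to 1842] at 3 dpi (1471 cells). Oligodendrocyte precursor-like cells, the dividing cells from which oligodendrocytes form, came next in sham with 1449 CPM [1387 to 1513] over 272 cells. At 3 dpi they stood at 424 CPM [411 to 438] over 542 cells.

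The other classes were below both oligodendrocyte-like levels and the sham precursor-like level. Border-associated macrophage-like cells, few in number, stood at 596 CPM [507 to 697] in sham, a level carried mostly by a few cells and taken up further on. Pericyte- or smooth muscle-like cells of the sham vessel wall summed to 518 CPM [476 to 564] and fibroblast-like cells at 3 dpi to 384 CPM [372 to 395]. They lie on either side of the 424 CPM of 3 dpi precursor-like cells. The sham level of endothelial-like cells was 285 CPM [271 to 299] and their 3 dpi level 173 CPM [163 to 183]. For microglia-like cells these were 136 CPM [128 to 144] and 74.3 CPM [71.5 to 77.0]. The blood-derived cells of the 3 dpi library were low too, with 157 CPM [97.3 to 240] in B cell-like, 103 [59.0 to 168] in T or NK cell-like, 93.04 [79.3 to 108] in neutrophil-like and 62.01 [59.3 to 64.8] in monocyte/macrophage-like cells. The wide interval of the T or NK cell-like cells overlaps those of the other 3 and of 3 dpi microglia-like cells, and the B cell-like and neutrophil-like intervals overlap each other. Monocyte/macrophage-like, 3 dpi microglia-like and neutrophil-like cells follow each other with intervals that do not overlap.

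**Figure D1:**
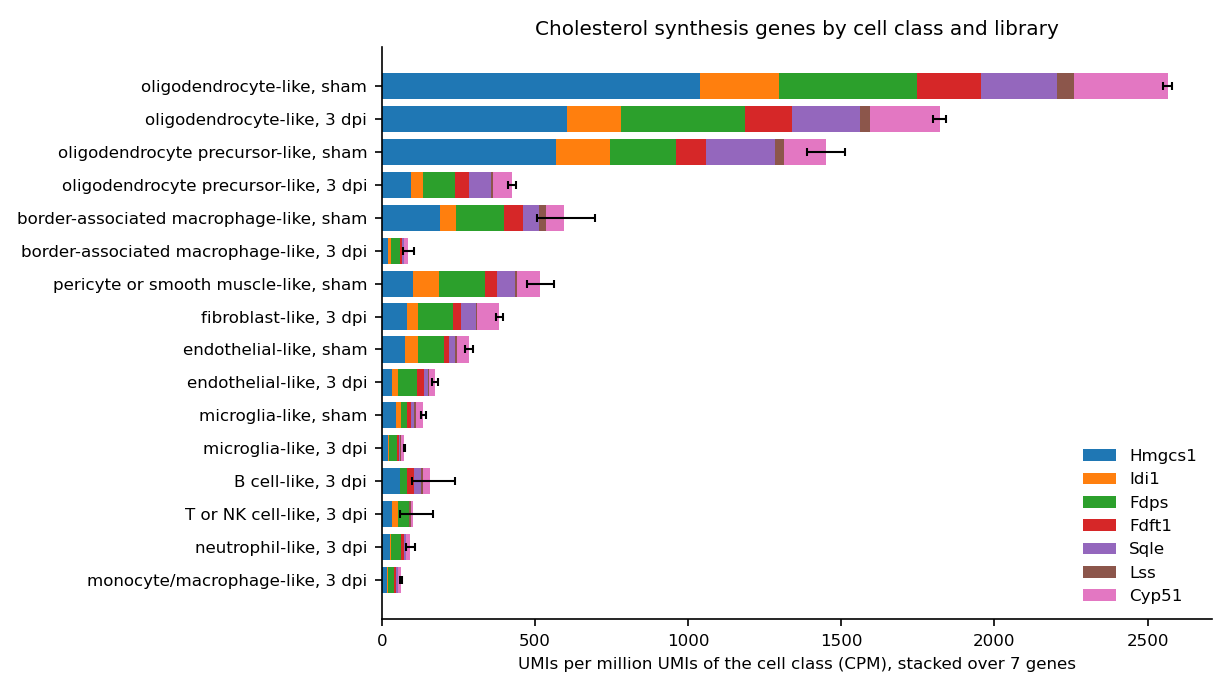
UMIs of the 7 genes per 1000000 UMIs (CPM) of each cell class with at least 50 cells in a library, stacked by gene, with the 95% counting interval of the sum. The 2 oligodendrocyte-like bars (2566 and 1821 CPM) and the sham precursor-like bar (1449 CPM) stand above all others, and the 3 dpi precursor-like bar (424 CPM) lies among the vascular and fibroblast-like classes.

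Over all barcodes of a library the 7 genes summed to 1817 CPM in sham and 390 CPM at 3 dpi, with Hmgcs1 at 723 and 117 CPM. The cell makeup of the libraries differed: oligodendrocyte-like cells gave 13.6% of the UMIs of kept cells at 3 dpi, and 61.6% of the UMIs of the 7 genes. Fibroblast-like cells gave 8.77% of the 7-gene UMIs at 3 dpi and precursor-like cells 7.45%, against 0.0206% and 1.71% in sham. These shares were near those of the UMIs of all genes at 3 dpi, 9.22% and 7.07%. In sham the 2 classes gave 0.0600% and 2.16% of the UMIs of all genes.

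Free RNA from broken oligodendrocytes can carry these transcripts into other droplets, and myelin transcripts show how much. Mag, a myelin protein gene, stood at 3921 CPM in sham and 4285 CPM in 3 dpi oligodendrocyte-like cells. In sham it was at 2.72% of that level in precursor-like, 3.59% in microglia-like and 3.54% in endothelial-like cells, and at 3 dpi at 0.497%, 0.698% and 0.430%. At the same share of the oligodendrocyte level, the 7 genes would sum to 69.9 CPM in sham precursor-like, 92.04 CPM in sham microglia-like and 90.8 CPM in sham endothelial-like cells. The measured sums were 20.7, 1.48 and 3.14 times these. At 3 dpi, where the Mag share was lower, the measured sums were 46.9, 5.84 and 22.1 times those at the Mag share. The level in microglia-like cells is thus near this mark in sham and above it at 3 dpi, and the levels in precursor- and endothelial-like cells lie above it in both libraries.

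The question of injury was addressed within each class that had at least 50 cells in both libraries. In precursor-like cells the 7 genes were lower at 3 dpi by 3.41-fold [3.23 to 3.60] in sum, with 5 of 7 past 2-fold after 10 CPM were added to both libraries. By this size rule 16.5% of the 8230 measured genes of the class (20 CPM or more in at least 1 library) were lower at 3 dpi. The median log2 ratio of the 7 genes, 3 dpi over sham, was -1.09, beside -0.28 over all measured genes. For oligodendrocyte-like cells the sum was lower by 1.41-fold [1.39 to 1.43]. There 0 of 7 passed 2-fold, where 3.73% of 6247 measured genes were lower by that rule and 8.53% past it in either direction, and the median log2 ratio was -0.45 against -0.04 for all measured genes.

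Hmgcs1 makes HMG-CoA, at the start of the mevalonate steps. It stood at 570 CPM in sham and 94.98 CPM in 3 dpi precursor-like cells, a level 6.00-fold lower [5.44 to 6.62]. In oligodendrocyte-like cells it stood at 1039 and 604 CPM, 1.72-fold lower [1.68 to 1.76]. In each class this was the member with the largest ratio, though in oligodendrocyte-like cells Lss, with fewer UMIs, was close to it.

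The isoprenoid steps come next. Idi1, which isomerises isopentenyl diphosphate, stood at 174 CPM in sham and 40.6 CPM at 3 dpi in precursor-like cells (4.28-fold lower [3.62 to 5.04]) and at 258 and 177 CPM in oligodendrocyte-like cells (1.46-fold lower [1.40 to 1.52]). Fdps, which joins these units into farnesyl diphosphate, also feeds protein prenylation, dolichol and ubiquinone. It stood at 216 and 103 CPM in precursor-like cells, 2.09-fold lower [1.83 to 2.38], which fell just short of the 2-fold rule once 10 CPM were added. In oligodendrocyte-like cells it stood at 449 and 406 CPM, 1.11-fold lower [1.08 to 1.14].

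Fdft1 commits farnesyl diphosphate to squalene. It stood at 97.7 CPM in sham and 45.4 CPM in 3 dpi precursor-like cells (2.15-fold lower [1.76 to 2.62]), also short of the rule with 10 CPM added, and at 212 and 152 CPM in oligodendrocyte-like cells (1.39-fold lower). Sqle, the oxygenase that opens the sterol part of the chain and a rate-controlling step, stood at 228 and 72.8 CPM in precursor-like cells (3.13-fold lower [2.73 to 3.58]). In oligodendrocyte-like cells Sqle stood at 246 and 222 CPM, only 1.11-fold lower [1.07 to 1.16].

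Lss closes the ring to lanosterol, and Cyp51 removes a methyl group from it. Lss stood at 27.2 CPM (39 UMIs) in sham and 7.48 CPM (65 UMIs) in 3 dpi precursor-like cells, 3.64-fold lower [2.38 to 5.49], and at 54.7 and 32.6 CPM in oligodendrocyte-like cells. Cyp51 stood at 137 and 60.1 CPM in precursor-like cells, 2.28-fold lower [1.92 to 2.69], and at 307 and 229 CPM in oligodendrocyte-like cells, 1.34-fold lower [1.30 to 1.39].

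**Figure D2:**
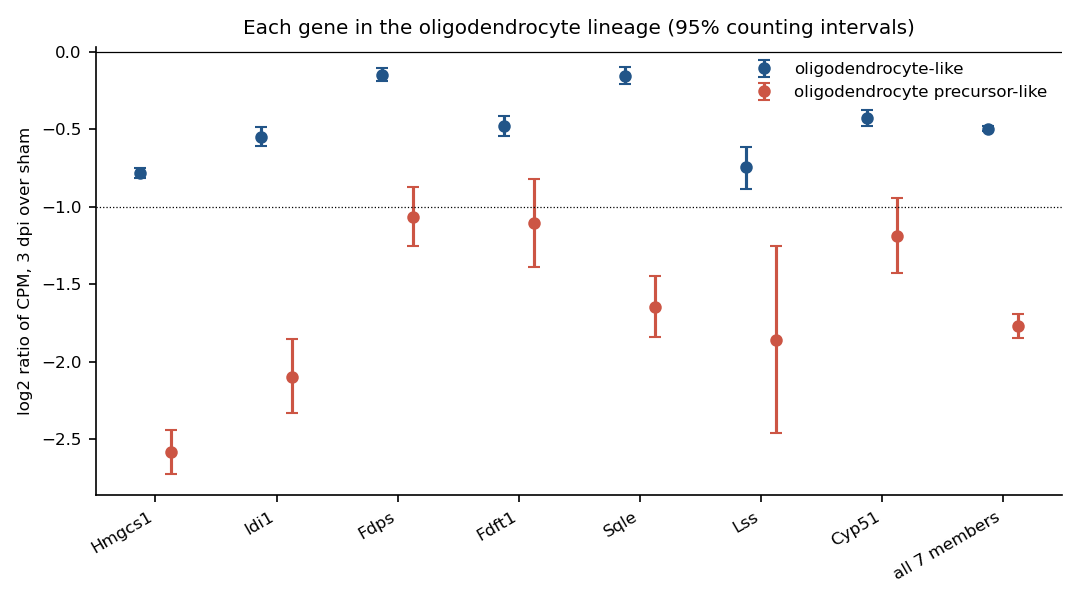
Log2 ratio of CPM, 3 dpi over sham, for each gene and for the 7-gene sum in oligodendrocyte-like and precursor-like cells, with 95% counting intervals and a dotted line at a 2-fold lower level. Without added CPM every precursor-like point lies below the dotted line and every oligodendrocyte-like point above it, and Hmgcs1 lies lowest in both.

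The ratio was therefore uneven along the chain, and the mix of transcripts differed. Hmgcs1 made up 39.4% of the 7-gene UMIs in sham and 22.4% in 3 dpi precursor-like cells, while Fdps made up 14.9% and 24.3%. In oligodendrocyte-like cells the share of Hmgcs1 was 40.5% and 33.2% and that of Fdps 17.5% and 22.3%. Fibroblast-like cells at 3 dpi (21.8% Hmgcs1, 30.02% Fdps), sham pericyte-like cells (19.9% and 28.6%) and sham endothelial-like cells (26.5% and 29.3%) had a lower Hmgcs1 share and a higher Fdps share than the sham oligodendrocyte lineage.

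Precursor-like cells were different clusters in the 2 libraries: cluster 23 held 267 of 272 sham cells and cluster 15 held 530 of 542 cells at 3 dpi. Their state differed in other respects measured here. The summed level of the 8 precursor markers was 11771 CPM in sham and 3098 CPM at 3 dpi, with 8 of 8 at 20 CPM or more in both. Mki67, made in dividing cells, stood at 25.8 and 466 CPM, and the median depth at 5176.5 and 15305.5 UMIs. Markers of the later lineage differed in the same direction as the 7 genes. The 5 committed precursor markers summed to 957 CPM in sham (3 of 5 at 20 CPM or more) and 91.8 CPM at 3 dpi (2 of 5), with Gpr17, a receptor of committed precursors, at 410 and 43.3 CPM. The 8 oligodendrocyte markers summed to 1817 CPM (8 of 8) and 289 CPM (3 of 8), and the 7 astrocyte markers to 1515 and 543 CPM (4 of 7 in both). Of 8 monocyte/macrophage markers 1 of 8 in sham and 3 of 8 at 3 dpi reached 20 CPM, summing to 43.3 and 397 CPM, with Ccr2, Ly6c2, Plac8, Chil3, Arg1 and F10 at 0 in sham. In the oligodendrocyte-like cells the 8 oligodendrocyte markers summed to 60787 and 36173 CPM (8 of 8 in both) and the monocyte/macrophage markers to 7.09 CPM (0 of 8) and 360 CPM (3 of 8). The part of these markers in the results was not tested.

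Cycling and depth could be looked at directly. At 3 dpi the 61 precursor-like cells with 0 UMIs of 6 cell cycle genes summed to 407 CPM [361 to 456] for the 7 genes, and the 437 cells with 5 or more to 437 CPM [422 to 453]. The 44 cells with 1 to 4 such UMIs were lower than both, at 302 CPM [261 to 347]. All 3 lay under the 1430 CPM [1366 to 1497] of the 255 sham cells with 0 such UMIs. Among cells of 5000 to 10000 UMIs the sum was 1411 CPM [1335 to 1489] in 155 sham cells and 689 CPM [628 to 753] in 90 cells at 3 dpi, a log2 ratio of -1.03 against -1.77 over all cells, and 2 of 7 genes passed 2-fold. At 3 dpi the sum was 1189 CPM [957 to 1460] in the 20 precursor-like cells of 2000 to 5000 UMIs and 302 CPM [284 to 320] in the 142 cells above 20000. In sham the 105 cells of 2000 to 5000 UMIs stood at 1536 CPM [1423 to 1656], an interval that overlaps the one at 3 dpi. The size of the precursor difference thus moved with depth, and the level at 3 dpi was the lower one in both depth ranges that the libraries share.

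**Figure D3:**
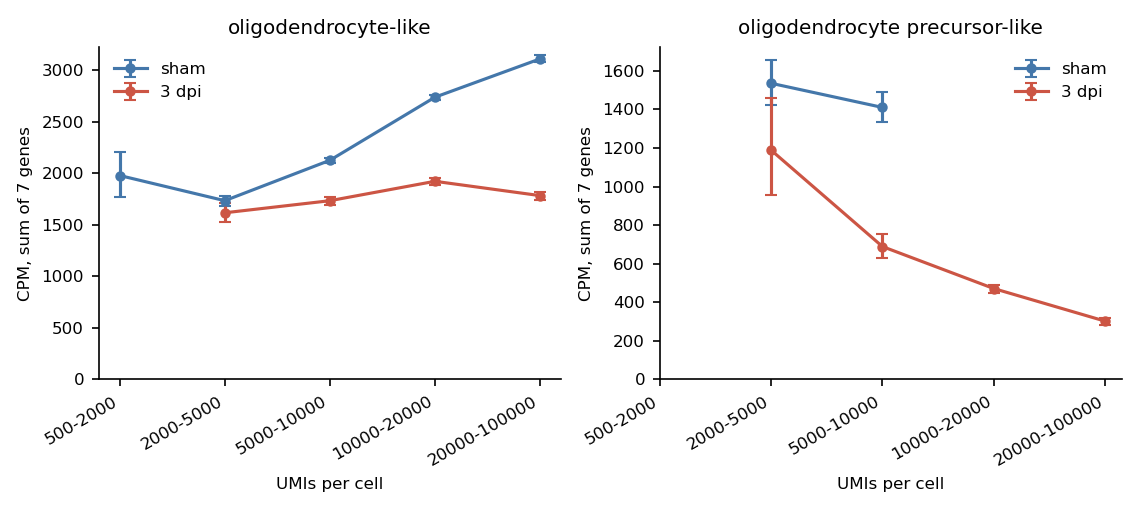
CPM summed over the 7 genes against the depth of the cells (UMIs per cell, in ranges with at least 20 cells) in oligodendrocyte-like and precursor-like cells, by library, with 95% counting intervals. Among precursor-like cells of 5000 to 10000 UMIs the sham point (1411 CPM) lies above the 3 dpi point (689 CPM); among oligodendrocyte-like cells the libraries are closest in shallow cells and farthest apart in deep ones.

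The share of cells with any UMI of the 7 genes was compared after each cell was thinned to 1000 UMIs. It was 72.2% [66.5 to 77.5] of sham and 36.3% [32.3 to 40.6] of 3 dpi precursor-like cells (2 and 0 cells were too shallow), and 80.6% [79.4 to 81.8] and 77.0% [74.8 to 79.1] of oligodendrocyte-like cells. Without thinning the shares were 96.7% and 96.3% in precursor-like and 98.6% and 99.1% in oligodendrocyte-like cells, at median depths of 5176.5, 15305.5, 7568 and 9229 UMIs. Neutrophil-like cells held such a UMI in 6.92% [5.27 to 8.90] of thinned cells (8.86% unthinned, median 1037.5 UMIs). Of the 1478 neutrophil-like cells 669 were too shallow to thin. Microglia-like cells had 11.05% in sham and 7.19% at 3 dpi (38.5% and 57.8% unthinned, medians 3822 and 13794.5 UMIs), and the 3 dpi share lies within the neutrophil-like interval. Endothelial-like cells (24.6% and 16.7%, unthinned 57.3% and 74.9%) and 3 dpi fibroblast-like cells (28.0%, unthinned 90.3%) lay above it.

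The sexes could be told apart within each pool by Xist and Y-linked UMIs. The 7-gene sum was lower at 3 dpi in male-derived (1303 and 417 CPM) and in female-derived precursor-like cells (1653 and 431 CPM). It was also lower in male-derived (2887 and 1918 CPM) and in female-derived oligodendrocyte-like cells (2346 and 1629 CPM). In oligodendrocyte-like cells of both libraries the male-derived level was the higher one, and the counting intervals did not overlap (sham 2859 to 2914 and 2321 to 2372, 3 dpi 1885 to 1951 and 1595 to 1663). These cells were not matched for depth or cluster. In sham oligodendrocyte-like cells the sum was 1734 CPM in cells of 2000 to 5000 UMIs and 3111 CPM above 20000. The part of depth in the difference between the sexes was not tested. Cells with UMIs of neither or of both kinds were left out, and the mice of 1 sex in a pool are 1 sample.

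Oligodendrocyte-like cells were not uniform. In sham the 7-gene sum ran from 1693 CPM [1669 to 1717] in cluster 1 (led by Hbb-bs, Ptgds and Il33) over 2344 CPM [2317 to 2372] in cluster 4 (Masp1, Gstm1, Gm28322) and 2844 CPM [2811 to 2878] in cluster 13 (Serpind1, Klk6, S100b) to 3629 CPM [3591 to 3668] in cluster 14 (Npb, A930006I01Rik, Gm32122). The shallow cluster 27 (94 cells, median 1072 UMIs) stood at 2564 CPM [2290 to 2862]. Its interval holds the levels of clusters 4 and 13, so it is not distinguishable from them, and lies between clusters 1 and 14. Opalin, a myelin membrane protein gene, ran the other way, from 2138 CPM in cluster 1 to 46.0 CPM in cluster 14, and Hopx, a homeodomain gene, from 7.69 to 1344 CPM. Mag was near even, at 3873 CPM in cluster 1 and 3707 CPM in cluster 14.

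The Hopx-high cluster 14 was 2.14-fold [2.11 to 2.18] above the Opalin-high cluster 1 in the 7-gene sum. Sqle had the largest ratio, with 376 CPM against 137 CPM (2.75-fold higher [2.59 to 2.92]), followed by Hmgcs1 with 1541 against 639 CPM (2.41-fold [2.35 to 2.48]). Fdft1 had the smallest, with 261 against 162 CPM (1.61-fold [1.52 to 1.71]). These 2 of 7, Sqle and Hmgcs1, passed 2-fold with 10 CPM added, where 7.18% of 6326 measured genes were higher in cluster 14 by that rule, and the median log2 ratio was 0.93 against 0.10 for all. Median depths were 15535.5 and 5717 UMIs. Among cells of 5000 to 10000 UMIs the sums were 2673 CPM [2527 to 2826] in 56 cells and 1619 CPM [1587 to 1653] in 897 cells, a log2 ratio of 0.72 against 1.10 over all cells.

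At 3 dpi the oligodendrocyte-like cells fell into 2 clusters of at least 50 cells, a Hopx-high cluster 11 (744 cells, Hopx 435 CPM, Opalin 105 CPM) and an Opalin-high cluster 12 (701 cells, 17.7 and 1095 CPM). Cluster 11 shared 29 of its 50 leading genes with sham cluster 14, and cluster 12 shared 19 of 50 with sham cluster 1. Both had high Serpina3n, a secreted protease inhibitor of injured glia (4601 and 3881 CPM, against 13.8 and 6.22 CPM in sham clusters 14 and 1), so the states are like ones and not the same. The 7-gene sum was 1943 CPM [1917 to 1970] in cluster 11 and 1599 CPM [1566 to 1631] in cluster 12, a 1.22-fold [1.19 to 1.25] higher level in the Hopx-high cells. None of the 7 (0 of 7) passed 2-fold, where 2.76% of 6010 measured genes were higher in cluster 11 by that rule.

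Set beside the like state in sham, the Hopx-high cells differed most. Their 7-gene sum was 3629 CPM in sham and 1943 CPM at 3 dpi, 1.87-fold lower, and Hmgcs1 was at 1541 and 633 CPM, 2.43-fold lower. Hmgcs1 alone (1 of 7) passed 2-fold, where 3.84% of 6302 measured genes were lower by that rule. The Opalin-high cells stood at 1693 CPM in sham and 1599 CPM at 3 dpi, 1.06-fold lower, and 0 of 7 passed 2-fold, where 4.01% of 6135 measured genes were lower. In these cells Sqle (137 and 169 CPM) and Fdps (317 and 354 CPM) were higher at 3 dpi and the other 5 lower. The 2 sham states differed by 2.14-fold and the 2 states at 3 dpi by 1.22-fold. In cells of 5000 to 10000 UMIs the Hopx-high and Opalin-high sums were 2673 and 1619 CPM in sham and 2097 and 1519 CPM at 3 dpi. The sham difference was thus smaller at this depth and the 3 dpi difference larger. Among cells of 5000 to 10000 UMIs the log2 ratio of 3 dpi over sham was -0.35 in the Hopx-high cells, against -0.90 over all cells, and -0.09 in the Opalin-high cells, against -0.08.

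**Figure D4:**
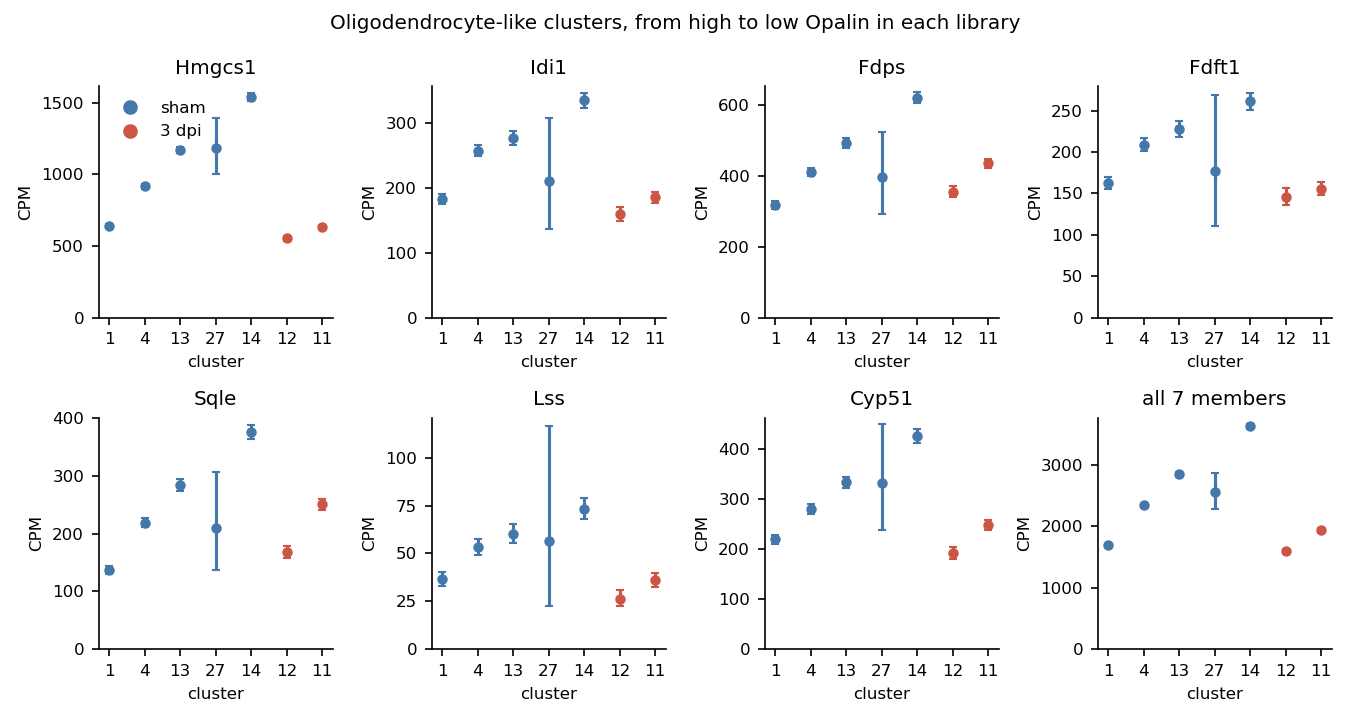
CPM of each gene and of the 7-gene sum in the oligodendrocyte-like clusters with at least 50 cells, ordered in each library from high to low Opalin, with 95% counting intervals. The sum climbs from 1693 CPM in sham cluster 1 to 3629 CPM in sham cluster 14, while the 3 dpi clusters 12 and 11 stand at 1599 and 1943 CPM; cluster 27, with few UMIs, has wide intervals.

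Further cells with lineage markers stayed without a class name. Cluster 18 (449 cells at 3 dpi) had collagen and oligodendrocyte genes together. Its best class was fibroblast, with 2 markers and Col1a1 leading, and its second class oligodendrocyte. Sox4 stood there at 455 CPM and Syt4 at 582 CPM. Its 7-gene sum was 704 CPM [671 to 739], 2.59-fold below the 3 dpi oligodendrocyte-like cells, and 4 of 7 were lower past 2-fold, where 6.53% of 6497 measured genes were lower by that rule. Mag stood there at 736 CPM, 5.82-fold below those cells. Cluster 19 mixed precursor and committed precursor markers. Its 351 cells at 3 dpi, with Gpr17 at 428 CPM and Mag at 90.7 CPM, summed to 1002 CPM [964 to 1040], between the precursor-like and the oligodendrocyte-like cells of that library. These Gpr17-high cells are not in the precursor-like class. Its 98 sham cells summed to 2318 CPM [2237 to 2401] but had Mag at 4461 CPM, so the 2 groups of cells were not compared.

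The other enzymes of the sterol chain were read from a list of 15. Of 14 measured in precursor-like cells, 9 were lower past 2-fold at 3 dpi and 0 passed it upwards, where 16.5% of all measured genes of the class were lower. Their median log2 ratio was -1.21, beside -0.28 for all measured genes. Msmo1, which removes methyl groups after Cyp51, stood at 366 CPM in sham and 87.03 CPM at 3 dpi (4.21-fold lower), and Dhcr7, a late reductase of the chain, at 67.002 and 15.3 CPM. Sc5d (94.9 and 28.9 CPM) and Mvd (67.7 and 19.3 CPM) were among the 9 too. In oligodendrocyte-like cells 0 of 14 passed 2-fold in either direction, where 8.53% of all measured genes did (median log2 ratio -0.26, beside -0.04), with Msmo1 at 549 and 348 CPM. The branches that leave the chain before squalene, to dolichol and ubiquinone, had 0 of 4 measured genes past 2-fold in both classes, with medians of -0.04 and -0.20.

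Regulators and uptake genes were the next list. In precursor-like cells 4 of 10 measured were lower past 2-fold, against 16.5% of all measured genes, among them Insig1, which retains SREBP, at 143 CPM in sham and 24.8 CPM at 3 dpi (5.78-fold lower), the sterol carrier Stard4 at 57.9 and 14.3 CPM, and Srebf1 at 62.1 and 11.7 CPM. Srebf2 itself was lower too, at 103 and 48.8 CPM, but fell just short of the 2-fold rule once 10 CPM were added. In oligodendrocyte-like cells 1 of 10 was lower past 2-fold, against 3.73% of all measured genes. This was Insig1, with 152 CPM in sham and 67.0 CPM at 3 dpi (2.26-fold lower). Srebf2 (148 and 105 CPM) did not. Insig1 did not follow the 7 genes between sham states: it was at 109 CPM in the Hopx-high and 194 CPM in the Opalin-high cluster.

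Fatty acid genes that SREBP proteins also drive had 3 of 9 measured lower in oligodendrocyte-like cells, Acss2, which makes acetyl-CoA from acetate (115 and 43.03 CPM), Elovl5 (178 and 80.6 CPM) and Fads1 (21.8 and 4.54 CPM). Of all measured genes 3.73% were lower there, and the list's median log2 ratio was -0.77. In precursor-like cells 2 of 8 were lower, where 16.5% of all measured genes were, Scd2 (584 and 228 CPM) and Elovl6 (103 and 44.2 CPM), with a median of -0.72. Of LXR targets, oxysterol and efflux genes, the exporter Abcg1 was lower in both classes (92.9 and 40.7 CPM in oligodendrocyte-like, 90.7 and 12.2 CPM in precursor-like cells). The lipid carrier Apoe was the other of 2 of 5 lower in precursor-like cells, at 2595 and 833 CPM. The lists were chosen with earlier results of these data known, so their counts are descriptions.

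**Figure D5:**
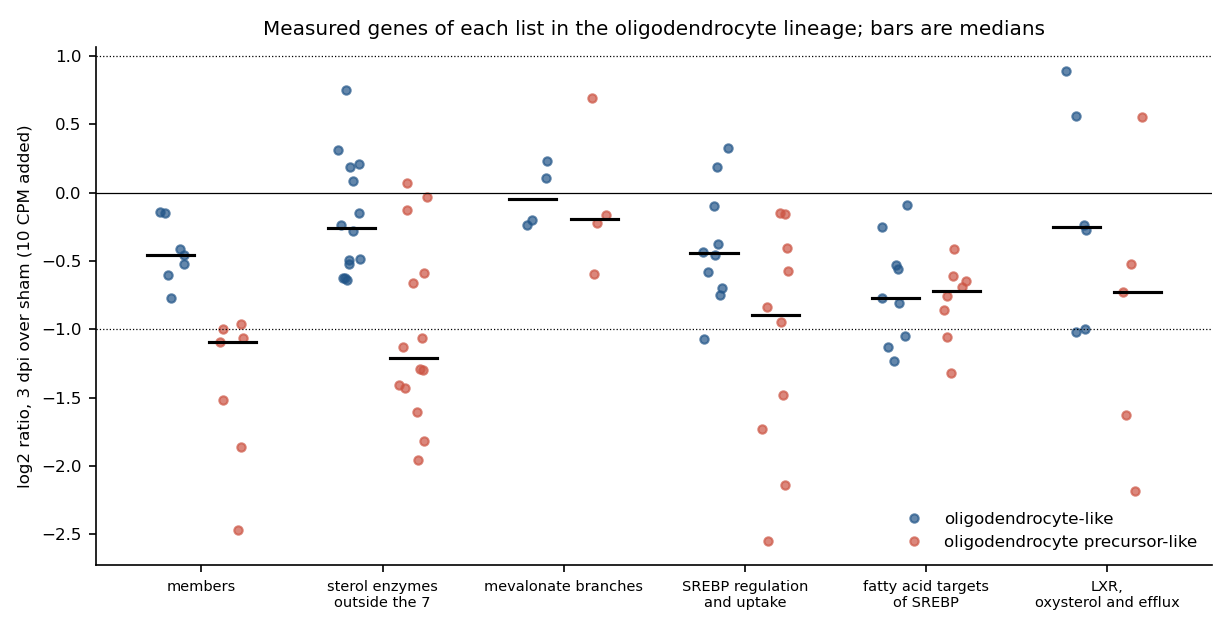
Log2 ratio, 3 dpi over sham with 10 CPM added, of each measured gene of the 7 (members) and of the 5 further lists in oligodendrocyte-like and precursor-like cells; bars are list medians and dotted lines 2-fold. The sterol enzymes outside the 7 have medians of -0.26 and -1.21, beside -0.45 and -1.09 for the 7.

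In microglia-, endothelial- and border-associated macrophage-like cells the differences between libraries moved when free RNA was subtracted. In microglia-like cells Hmgcs1 stood at 46.7 CPM in sham and 18.96 CPM at 3 dpi, Cyp51 at 25.4 and 11.8 CPM and Fdps at 22.8 and 24.95 CPM. The other 4 did not reach 20 CPM. None of the 3 measured genes (0 of 3) passed 2-fold, where 16.5% of 6206 measured genes of the class were lower. The 7-gene log2 ratio was -0.87 and turned to 0.28 when 5% of UMIs were subtracted as free RNA and to 0.49 when it was subtracted at the level of Mag, so no direction is given. The clusters of the class differed between libraries (5, 8 and 29 in sham, 7, 9 and 10 at 3 dpi). At 3 dpi the Mki67-high cluster 7 summed to 80.8 CPM [76.6 to 85.3] and the Mki67-low cluster 10 to 68.1 CPM [63.6 to 72.9], a log2 ratio of 0.25 that was -0.21 among cells of 5000 to 10000 UMIs.

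Other sterol genes of microglia-like cells differed in both directions. Of 7 measured LXR, oxysterol and efflux genes 4 were higher past 2-fold at 3 dpi, where 11.7% of measured genes were higher: Apoe (1728 and 10304 CPM), the exporter Abca1 (78.6 and 204 CPM), the esterifying enzyme Soat1 (41.98 and 132 CPM) and Ch25h, which makes an oxysterol (5 UMIs or 0.548 CPM, and 86.03 CPM), and 1 was lower, Cyp27a1 (33.0 and 3.51 CPM). Of 9 regulators and uptake genes 3 were lower, among them Insig1 (41.98 and 9.48 CPM) and Mylip, a ubiquitin ligase (182 and 70.7 CPM). Of all measured genes of the class 16.5% were lower past 2-fold. Marker sums differed in the same cells. The 9 microglia markers summed to 18466 and 5126 CPM (9 of 9 at 20 CPM or more in both), the 8 monocyte/macrophage markers to 347 CPM (1 of 8, with Ly6c2, Chil3, Arg1 and F10 at 0) and 4336 CPM (3 of 8), and the 6 border-associated macrophage markers to 4.82 CPM (0 of 6, with Lyve1 at 0) and 99.6 CPM (1 of 6). Mag was lower (141 and 29.9 CPM). The part of these markers in the higher and lower levels was not tested.

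In endothelial-like cells (cluster 3 in sham, cluster 21 at 3 dpi) Hmgcs1 was at 75.5 CPM in sham and 32.02 CPM at 3 dpi, Idi1 at 43.5 and 20.5 CPM, Fdps at 83.4 and 64.04 CPM and Cyp51 at 38.9 and 19.9 CPM. Hmgcs1 alone (1 of 4 measured) passed 2-fold, where 13.9% of 7061 measured genes were lower. The 7-gene sum was 1.65-fold lower [1.53 to 1.78], with a log2 ratio of -0.72 that was -0.23 with free RNA subtracted at the level of Mag. Nus1, a subunit of the enzyme that makes dolichol, was higher past 2-fold (48.3 and 142 CPM), where 8.38% of measured genes were higher. Insig1 (46.2 and 17.7 CPM) and, of the fatty acid genes, Elovl5 (68.1 and 23.2 CPM) and Scd2 (193 and 86.04 CPM) were also lower. Median depths were 3223.5 and 13276 UMIs. The 7 endothelial markers summed to 16881 and 6130 CPM (7 of 7 in both), the 8 oligodendrocyte markers to 3204 CPM (8 of 8) and 477 CPM (4 of 8), and the 8 pericyte or smooth muscle markers to 913 CPM (2 of 8) and 201 CPM (4 of 8). Monocyte/macrophage markers summed to 776 CPM (1 of 8) and 1627 CPM (3 of 8), neutrophil markers to 3.27 CPM (0 of 7) and 190 CPM (2 of 7), and fibroblast markers to 7.74 CPM (0 of 6) and 136 CPM (4 of 6). Their part in the result was not tested.

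Border-associated macrophage-like cells were few (54 in sham, 95 at 3 dpi). The sham sum of the 7 genes was 596 CPM [507 to 697] and the 3 dpi sum 85.7 CPM [68.8 to 105]. All 7 of 7 were lower past 2-fold, where 15.7% of 6736 measured genes were. Mag stood in the sham cells at 817 CPM, 20.8% of the oligodendrocyte level, and at that share the 7 genes would sum to 535 CPM. With free RNA subtracted at the level of Mag 0 of 7 passed. The 39 sham cells of 2000 to 5000 UMIs summed to 112 CPM [62.8 to 185]. They held 15 of the 157 sham UMIs of the 7 genes in the class, so most came from the few other cells. The 8 oligodendrocyte markers summed to 13311 CPM in sham (8 of 8 at 20 CPM or more) and 234 CPM at 3 dpi (4 of 8). The source of the sham level was not tested.

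Fibroblast-like cells, few in sham (16 cells), could be described at 3 dpi alone. Cluster 20 (422 cells, led by H19, Wisp2 and Prok2) summed to 420 CPM [407 to 434] and cluster 24 (168 cells, led by Slc7a11, Aldh1a2 and Vtn) to 262 CPM [242 to 282], with intervals that do not overlap. Mag stood in the class at 0.668% of the oligodendrocyte level, a share at which the 7 genes would sum to 12.2 CPM.

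The levels of the 7 genes were correlated over the 16 combinations of class and library. Over the 21 pairs of members Pearson's r of log2(CPM + 10) lay between 0.86 and 0.98, with a median of 0.92. These points share 2 libraries and their free RNA, so r is a description. Of 7984 genes at 50 CPM or more, the 10 non-members with a profile most like the mean of the 7 were Ppp2r3a (r = 0.98), Rtkn (0.98), Msmo1 (0.98), Apbb1, Ap2a1, Kazn, Scd2, Tecr, Atp9a and Bace1 (0.97 to 0.96). Msmo1 is the single enzyme of the sterol list among them. Of the members, Idi1 (0.95) and Lss (0.93) had a lower r with that mean than these 10 non-members. Ppp2r3a, a regulatory subunit of a phosphatase, stood at 151 and 110 CPM in sham and 3 dpi oligodendrocyte-like cells and at 66.3 and 39.5 CPM in precursor-like cells.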

How the data were processed

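The deposited tables held raw counts, 1 UMI count per gene and barcode, made by the authors with the 10X Chromium 3′ kit v.3 per the labels' protocols. The submitters' processing notes name Cell Ranger, Seurat and GRCh38, a human build, while the gene symbols are mouse symbols. Roles and versions are not given in the sources used here, and 0 of 22480 genes were mitochondrial.

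Cells with at least 200 genes and 500 UMIs were kept, and doublets called against 2 simulated doublets per cell (820 in sham, 8.10%, and 1476 at 3 dpi, 10.9%) were removed. The score passed 63.7% and 69.5% of simulated doublets. Cells were scaled to 10000 counts, logged, reduced to 30 components of 2000 variable genes without lipid genes, and clustered together (Leiden, resolution 1.0, 15 neighbours, no integration) into 32 clusters, of which 4 stayed unnamed. Ribosomal and sex-linked genes were also kept out of the variable genes, as were immediate early and dissociation genes (response genes). Named classes come from rebuilt clusters. A class name needed at least 3 markers and a lead of 1 log2 unit over a second class with 50% of its markers.

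For each class in each library UMIs were summed. No p-value was computed. Intervals are exact Poisson for levels, exact conditional for ratios and Clopper-Pearson for shares, at 95%, and treat UMIs as independent. The size rule was 2-fold with 10 CPM added, for genes reaching 20 CPM in 1 or both libraries. With median-of-ratios scaling the log2 ratios rise by 0.04 in oligodendrocyte-like, 0.20 in precursor-like and 0.22 in endothelial-like cells. Named genes were the 7 members, those past 2-fold in 5 pathway lists (at most 5 per list and class), Msmo1, Insig1 and Srebf2 where the lists are described, and the 10 genes of the most like profile; some genes under this rule are not reported here. Members, lists, matched states and promoter motifs were chosen with earlier results of these data known. The ratio and call were tested on simulated data. Clustering used leidenalg 0.10.2, igraph 0.11.9 and scikit-learn 1.9.0, and the other steps matplotlib 3.10.9, pandas 2.3.3, scipy 1.17.1 and numpy 2.4.6 under Python 3.11.15.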

Additional observations from a re-analysis of the deposited data

How the results depend on the processing

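No paired analysis was possible because each group was 1 library, and no library could be left out. Depth ranges, subtraction at the level of Mag, the counting of clusters 18 and 19 and the settings of the matched states were added after seeing the data.

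The 7-gene log2 ratio of oligodendrocyte-like cells (-0.49) stayed below 0 in all 12 alternatives: -0.45 with median-of-ratios scaling, -0.60 with at least 500 genes and 1000 UMIs, -0.59 with doublets kept, -0.59 with finer and -0.58 with coarser clusters, -0.59 with lipid and response genes allowed in clustering, -0.46 with 5% of UMIs subtracted as free RNA, -0.34 with cells weighted equally, -0.59 (male), -0.53 (female), -0.29 in cells of 5000 to 10000 UMIs and -0.61 with cluster 18 counted in. Fdps turned to 0.0065 with cells weighted equally and to 0.037 in cells of 5000 to 10000 UMIs, and Sqle to 0.053 in the latter.

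In precursor-like cells (-1.77, 5 of 7 lower) the ratio was below 0 in all 13 alternatives, in the same order -1.58, -1.43, -1.49, -1.43, -1.63 and -1.43, then -1.55 with equal weights per cell, -1.64 (male), -1.94 (female) and -1.03 in cells of 5000 to 10000 UMIs. The count was 3 with the stricter filter, doublets kept, finer clusters, lipid and response genes allowed or cells weighted equally, 2 in cells of 5000 to 10000 UMIs, and 7 with coarser clusters, female-derived cells, 1 CPM added or cluster 19 counted in. The cells of cluster 19 were unlike between the libraries, with Mag high in its sham cells alone. The setting that counts them in therefore does not compare like cells.

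In microglia-like cells (-0.87) the ratio was 0.28 with 5% subtracted, 0.49 with subtraction at the level of Mag, -0.76 in male-derived cells and -0.73 in cells of 5000 to 10000 UMIs. With the 2 subtractions Hmgcs1 turned to 0.18 and 0.35, Fdft1 to 0.085 and 0.16, and Sqle to 0.14 and 0.23. Fdps turned to -0.063 with cells weighted equally and to -0.010 in female-derived cells, and 2 genes were lower with 1 CPM added. In endothelial-like cells (-0.72) the ratio was -0.50 with median-of-ratios scaling, -0.34 and -0.23 with the 2 subtractions and -0.54 in male-derived cells. Sqle turned to 0.045 and 0.13 with the subtractions. The count of 1 was 0 with that scaling, doublets kept, either subtraction, cells weighted equally or male-derived cells, and 2 with 1 CPM added or in cells of 5000 to 10000 UMIs. In border-associated macrophage-like cells (-2.80, 7 lower) the ratio was -1.64 with 1 gene lower when cells weighed equally, and -0.32 with 0 lower with subtraction at the level of Mag, where Hmgcs1 (1.39), Idi1 (0.96), Sqle (0.17) and Cyp51 (1.07) turned. No such class was found, or too few cells were left, with doublets kept, coarser clusters, lipid and response genes allowed, male-derived cells or cells of 5000 to 10000 UMIs.

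Between sham states (1.10, Hopx-high over Opalin-high) the log2 ratio was 1.14 with 5% subtracted, 1.06 with doublets kept, 0.72 in cells of 5000 to 10000 UMIs and 1.01 in male-derived cells. At 3 dpi (0.28) it was 0.35 with cells weighted equally, 0.23 with doublets kept, 0.46 in cells of 5000 to 10000 UMIs, 0.19 (male) and 0.34 (female). For the Mki67-high microglia-like cells (0.25) it was -0.21, 0.12 and 0.44 in the last 3. For 3 dpi over sham, the Hopx-high cells (-0.90) stood at -0.79 with cells weighted equally, -0.35 in cells of 5000 to 10000 UMIs, -0.95 (male) and -0.87 (female), and the Opalin-high cells (-0.08) at -0.034 with cells weighted equally, -0.020 with 5% subtracted and -0.13 in male-derived cells. Cluster 18 (-1.37) stood at -1.18 in cells of 5000 to 10000 UMIs and -1.11 in female-derived cells. Thinning to 1000 UMIs moved the share of cells with a UMI of the 7 genes, in sham and 3 dpi, from 98.6% and 99.1% to 80.6% and 77.0% (oligodendrocyte-like), 96.7% and 96.3% to 72.2% and 36.3% (precursor-like), 38.5% and 57.8% to 11.05% and 7.19% (microglia-like), 42.6% and 56.8% to 18.5% and 5.26% (border-associated macrophage-like) and 57.3% and 74.9% to 24.6% and 16.7% (endothelial-like), from 54.1% to 34.8% in sham pericyte-like cells, and at 3 dpi to 28.0% (fibroblast-like), 6.33% (monocyte/macrophage-like) and 6.92% (neutrophil-like). The cause of these shifts was not tested. Of 392 values of single members under alternatives 232 stayed within their counting interval, 143 moved in the same direction and 17 turned. Those that stayed were 24 of 84 in oligodendrocyte-like, 51 of 91 in precursor-like and 57 of 84 in microglia-like cells. They were 35 of 49 in border-associated macrophage-like and 65 of 84 in endothelial-like cells. Of 56 values of the 7-gene sum 24 stayed, 30 moved in the same direction and 2 turned.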

Other observations

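Some enzymes of the chain did not share the lower level of the precursor-like cells at 3 dpi. Ebp, which shifts a double bond late in the chain, stood at 47.5 CPM in sham and 50.4 CPM at 3 dpi, Lbr, a sterol reductase that also anchors chromatin to the nuclear envelope, at 27.9 and 27.1 CPM, and Pmvk, the phosphomevalonate kinase, at 101.9 and 92.6 CPM. These 3 were named after their values were seen.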
